A study of Homo sapiens with 6 samples.

Results

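The levels of 10 imprinted genes were followed in 12Z, a line of human epithelial cells from endometriosis, after knockdown of SMARCA4, the gene for BRG1, which drives SWI/SNF complexes that move nucleosomes. The genes were DIRAS3, PEG10, MEST, IGF2 and PLAGL1, known as expressed from the paternal allele, CDKN1C, H19 and MEG3, known as expressed from the maternal allele, and IGF2R and GRB10, whose imprinting in human depends on tissue or isoform. They are 10 of 58336 gene identifiers in the count tables, and 9 of the 15830 genes whose counts were high enough to be tested. The set was chosen by the rise of DIRAS3 in these same libraries, where its CPM was among those with the largest differences, so its values are a description without a test. The other 9 genes entered by name.

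RNA was sequenced in 6 libraries, 3 from cells transfected with an siRNA against SMARCA4 (siBRG1) and 3 from cells transfected with a non-targeting siRNA (control). Per the labels, both groups were grown in 10% serum, received 50 nM siRNA, had their medium changed at 24 h, were moved to 0.5% serum at 48 h and gave RNA at 72 h. The protocol text also speaks of a drug or vehicle, which no library's label names. Every control library, and no siBRG1 library, is marked as analysed again from an earlier deposit, so that for all genes here batch and knockdown cannot be told apart. The labels do not describe replicates as separate cultures, and the p-values then reflect only how far these libraries differ from each other, which may be technical.

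An imprinted gene is transcribed mainly from the copy inherited from 1 parent, because DNA methylation laid down in the germ line marks the copies differently by parent. Imprinted genes lie in clusters that share control regions and often a long noncoding RNA, and many of them act on fetal and placental growth and on the cell cycle. The counts here do not separate the alleles, so a change in level cannot be assigned to the active or the silent copy. In bulk RNA, fewer expressing cells and less RNA per cell cannot be told apart either.

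SMARCA4 itself stood at 60.5, 78.9 and 50.6 CPM in siBRG1 and at 244, 266 and 262 CPM in control, 4.07-fold lower after knockdown, and CPM here means counts scaled to library total (counts-per-million) after TMM normalisation. Gene counts per library ranged from 12391161 to 13369692 in siBRG1 and from 40228678 to 49720320 in control, so low genes are measured less precisely in siBRG1, where 3 counts stand for 0.236 CPM on average against 0.0690 CPM in control. Reads outside annotated features of their strand made up 3.97 ± 0.194% of reads in siBRG1 and 13.3 ± 0.415% in control, and small RNA genes took 0.00915 ± 0.00159% and 0.464 ± 0.0162% of gene counts (SD, n = 3). Of 7 epithelial markers 3 rose and 2 fell. Together they summed to between 3482 and 3737 CPM in siBRG1 and between 3940 and 4025 CPM in control. EPCAM, among these rises, had enough counts for testing in siBRG1 only, so it was tested because of the group in which it is high. KRT8, KRT18 and KRT19 were abundant in both groups (1655, 1296 and 609 CPM in siBRG1, 1556, 1343 and 883 CPM in control), KRT7 was lower in siBRG1 (36.9 against 196 CPM), and CDH1 (5.87 against 3.05 CPM) and EPCAM (1.61 against 0.251 CPM) were low. Stromal fibroblast markers summed to between 4918 and 5269 CPM in siBRG1 and between 2747 and 2940 CPM in control, and 7 of the 8 rose. Over all genes tested, 36.1% rose and 36.5% fell. Of 9 trophoblast markers, the cell type in which many imprinted genes are high, 6 had no count in any library and the list summed to 0.437 CPM at most. The part of these differences in the results below was not tested.

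The imprinted genes moved in both directions. DIRAS3, CDKN1C, PEG10 and IGF2R were higher in siBRG1, MEG3, PLAGL1, GRB10 and MEST were lower, H19 did not pass the test and IGF2 was barely detected. CDKN1C reached the count filter in only 1 control library, so it was tested because of the group in which it is high, and its values too are given as a description. Of the 7 other tested genes, 2 rose and 4 fell at an adjusted p under 0.05 (edgeR's quasi-likelihood test, adjusted over all genes tested). Among all 15830 genes tested 72.6% were called, 36.1% as higher and 36.5% as lower, and nothing particular to imprinted genes is read from this count. The CPM of the groups did not overlap for 6 of those 7 genes, against 74.3% of all genes tested. Of the paternally expressed genes DIRAS3 and PEG10 were higher and MEST and PLAGL1 lower, and of the maternally expressed genes CDKN1C was higher and MEG3 lower. DIRAS3 and CDKN1C are descriptions, and without CDKN1C the only maternally expressed gene called is MEG3. No relation between allele and direction is therefore read from these genes.

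**Figure D1:**
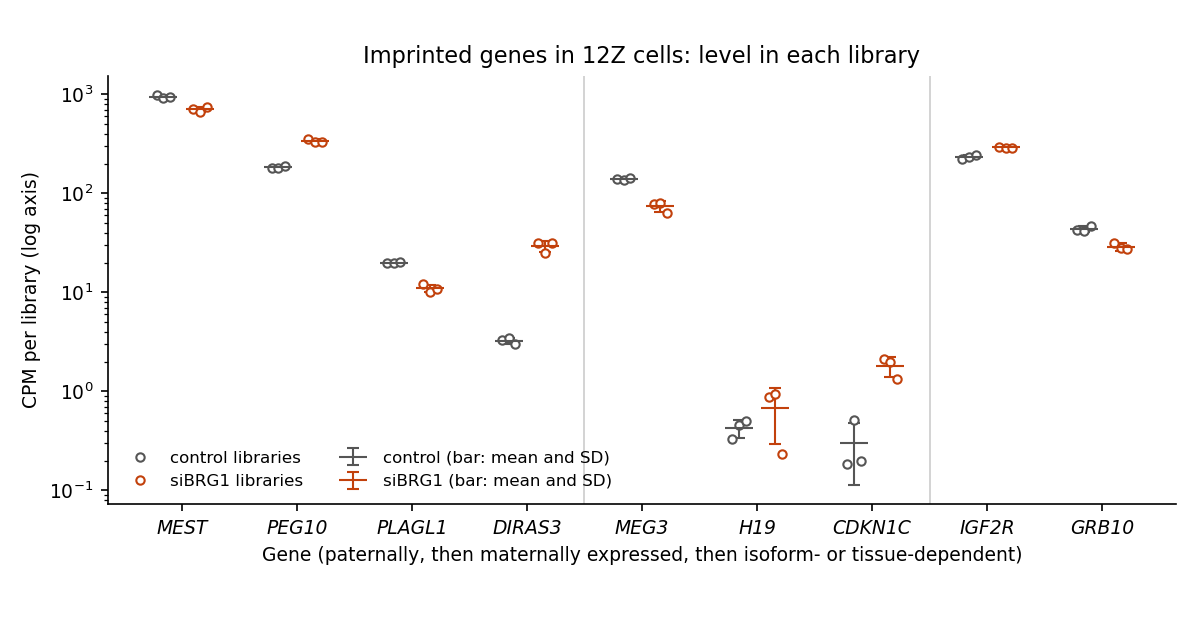
CPM of 9 imprinted genes in each library on a log axis, with control in grey, siBRG1 in orange, and bars for the mean and SD of 3 libraries; IGF2, at 0 in 3 libraries, is left out. DIRAS3 lies near 3 CPM in control and between 25 and 31.4 CPM in siBRG1, and H19 is the gene whose groups overlap.

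The start region of DIRAS3, the gene with the largest rise of the 10, and that of MEG3, whose fall was among the largest, are shown because these genes lie near the ends of the range. Each stretch holds the 250 bases before a RefSeq start on GRCh38.p14, 5′ to 3′ on the strand of the gene. Capitals mark matches, on either strand, to the motifs that were searched. The TATA box was searched as TATAAA. The core that the imprint-keeping factor ZFP57 binds when methylated was searched as TGCCGC. The AP-1 motif was searched as TGANTCA, and a palindrome like the binding site of PLAGL1 as GGGGCCCC.
DIRAS3, chr1:68050628-68050877, minus strand: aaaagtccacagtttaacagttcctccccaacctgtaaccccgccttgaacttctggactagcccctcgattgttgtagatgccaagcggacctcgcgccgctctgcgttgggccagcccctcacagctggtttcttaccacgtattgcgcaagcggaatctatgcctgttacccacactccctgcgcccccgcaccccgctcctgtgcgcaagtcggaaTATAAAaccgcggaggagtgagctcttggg
MEG3, chr14:100825858-100826107, plus strand: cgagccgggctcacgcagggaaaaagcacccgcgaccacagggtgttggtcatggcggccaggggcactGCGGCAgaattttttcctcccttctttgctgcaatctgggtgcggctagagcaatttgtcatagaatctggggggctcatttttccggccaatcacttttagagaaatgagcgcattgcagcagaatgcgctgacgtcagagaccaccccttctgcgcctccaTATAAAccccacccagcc

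The DIRAS3 stretch holds 1 TATAAA, close to the start, and none of the other motifs. Its start lies 1004 bases inside the outermost start that GENCODE gives. The MEG3 stretch belongs to a RefSeq start 46698 bases inside the outermost GENCODE start, and it holds 1 TATAAA near its end and 1 TGCCGC, read on the opposite strand as its complement. TATAAA was found in 10.7% of the 35116 upstream stretches of all genes, TGCCGC in 12.7%, TGANTCA in 6.57% and GGGGCCCC in 1.77%. A match describes letters in this window and no bound site. RefSeq windows were at hand for 7 of the 10 genes, and the stretch nearest the GENCODE start held between 4 CpG (H19) and 37 CpG (GRB10), with 17 in DIRAS3, 13 in MEG3 and 21 in PLAGL1. The median over the 35116 stretches of all genes, some of which share a gene, was 11. TGANTCA and GGGGCCCC were in none of these 7 nearest stretches.

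DIRAS3 (ENSG00000162595.6, chromosome 1, 68045896 to 68051631 on GRCh38, minus strand) encodes a small GTPase of the Ras family that restrains growth and promotes autophagy, and its maternal copy is silent. It stood at 31.4, 25 and 31.3 CPM in siBRG1 and at 3.29, 3.44 and 3.01 CPM in control. Every siBRG1 library was above every control library by a wide gap. The means were 29.2 ± 3.66 and 3.25 ± 0.220 CPM (SD, n = 3), an 8.99-fold difference (log2 fold change 3.17, SE 0.113), which ranked 82 among 5716 rises. Leaving out any 1 library, or any other alternative tried, kept its log2 fold change between 3.10 and 3.27. The authors' deposited table gives 3.15 (SE 0.128). DIRAS1, a related gene, rose by a smaller amount, with no test of the difference (17.3 ± 2.43 against 12.3 ± 0.168 CPM, log2 fold change 0.49, SE 0.0986, adjusted p = 6.32e-05). DIRAS2 had no count in any library.

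Genes beside DIRAS3 did not share the size of its rise. GNG12, which encodes a G protein gamma subunit, starts 218 kb away and fell by 0.48 on the log2 scale (SE 0.0405). WLS, which carries WNT proteins to the cell surface, starts 181 kb away on the other side and rose by 0.48 (SE 0.0558). GNG12-AS1, a noncoding RNA whose gene spans DIRAS3 on the opposite strand, stood at 0.729, 3.14 and 1.02 CPM in siBRG1 and at 0.638, 0.841 and 0.622 CPM in control. Its groups overlap, and siBRG1 replicate 2 alone is high. It passed (log2 fold change 1.20, SE 0.396, adjusted p = 0.00811), but not when that library was left out (log2 fold change 0.32, adjusted p = 0.526) nor with unstranded counts (log2 fold change 0.27, adjusted p = 0.414). On the strand opposite to DIRAS3 itself, 5 counts fell in its exons in all siBRG1 libraries together and 2 in all control libraries.

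By the profile over the 6 libraries, the 3 protein-coding genes most like DIRAS3 were PTGES, CLDN1 and PDE7B. Likeness was the Euclidean distance of log2(CPM + 0.5) profiles centred on the control mean, at 0.241, 0.267 and 0.310. PTGES, a prostaglandin E synthase gene, stood at 25.9 ± 3.69 against 2.95 ± 0.490 CPM. CLDN1, a tight junction claudin gene, stood at 121 ± 5.40 against 16.2 ± 1.12 CPM, and PDE7B, a cyclic AMP phosphodiesterase gene, at 27.8 ± 2.11 against 2.72 ± 0.194 CPM. The libraries fall into 2 groups, so this measure follows mainly the size of the difference between them.

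PEG10 (ENSG00000242265.5, chromosome 7, 94656325 to 94669695, plus strand), a gene domesticated from a retrotransposon and needed for placenta formation, stood at 353, 331 and 328 CPM in siBRG1 and at 180, 182 and 190 CPM in control. The groups were far apart, and within each the libraries lay close together. It rose 1.83-fold (log2 fold change 0.88, SE 0.0395, adjusted p = 1.32e-17). SGCE, which encodes epsilon-sarcoglycan and is also expressed from the paternal allele, starts 0.247 kb away on the opposite strand. It stood at 63.6, 60.9 and 60.5 CPM in siBRG1 against 31.5, 29.7 and 30.7 CPM in control, a rise of 1.01 on the log2 scale (SE 0.0575, adjusted p = 2.71e-15). The pair that meets head to head at this start thus rose together, by 0.88 and 1.01. CASD1, 147 kb away, rose by 0.41 (SE 0.0931). Counts on the strand opposite to PEG10 were between 0.641% and 0.940% of both strands in siBRG1 and between 0.442% and 0.585% in control, without overlap and in small numbers (103 and 126 counts). SGCE starts inside PEG10 on that strand, so its reads can be among them, and their part was not tested. The shares of IGF2R did not overlap either (0.512% to 0.587% in siBRG1, 0.345% to 0.481% in control).

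**Figure D2:**
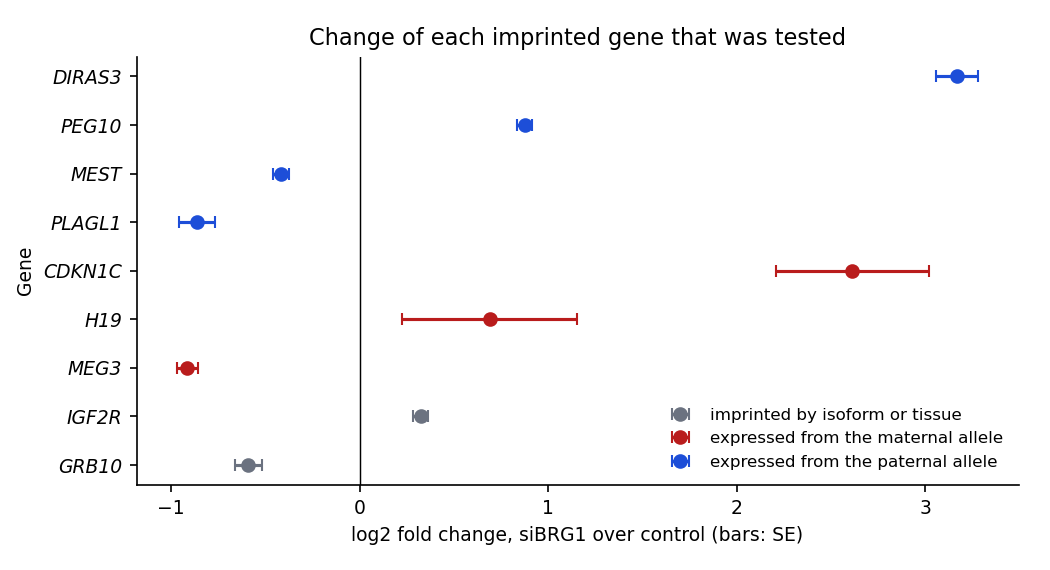
log2 fold change of siBRG1 over control for the 9 imprinted genes with enough counts, bars showing the SE, coloured by the allele each gene is known to be expressed from. DIRAS3 (3.17) and CDKN1C (2.61) lie far to the right, and values above and below 0 occur in each colour.

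MEST (ENSG00000106484.15, chromosome 7, 130486171 to 130506465, plus strand), which encodes a hydrolase-like protein of the endoplasmic reticulum, had the highest CPM of the 10 genes in both groups. It stood at 705, 669 and 745 CPM in siBRG1 and at 982, 909 and 936 CPM in control, and no library crossed between the groups. It fell 1.33-fold (log2 fold change −0.42, SE 0.0410, adjusted p = 4.30e-10). MEST held 47.7 ± 1.78% of the summed CPM of the 10 genes in siBRG1 and 60.2 ± 1.45% in control, while that sum was 1481 ± 40.7 and 1566 ± 35.1 CPM (SD, n = 3).

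Of 9 tested genes within 250 kb of the start of MEST, 1 rose and 4 fell, beside 36.1% and 36.5% of all genes tested. The 4 include MIR335, described above, which reached the count filter in no siBRG1 library and could only come out lower. CPA4, a carboxypeptidase gene reported as maternally expressed, stood at 95.1, 77.8 and 80.0 CPM in siBRG1 against 385, 396 and 392 CPM in control, and its fall was the largest among the protein-coding neighbours here (log2 fold change −2.21, SE 0.0510, adjusted p = 1.25e-24). COPG2, which encodes a coat protein of Golgi vesicles and overlaps the end of MEST on the opposite strand, rose (log2 fold change 0.70, SE 0.0577). CEP41, a gene of the primary cilium, fell slightly (log2 fold change −0.28, adjusted p = 0.000940), and was not called after a GC and length correction (log2 fold change −0.04, adjusted p = 0.599). AC007938.3 fell by 1.11 on the log2 scale (SE 0.201), which held neither after a GC and length correction (adjusted p = 0.107) nor with unstranded counts (adjusted p = 0.0617). MESTIT1, an antisense RNA at the start of MEST, was at 0.616 ± 0.174 against 0.497 ± 0.0334 CPM, and CPA5, KLF14 and AC007938.2 did not pass either. AC007938.2 was called with unstranded counts (log2 fold change −4.72), where reads of the opposite strand cannot be told apart.

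PLAGL1 (ENSG00000118495.18, chromosome 6, 143940300 to 144064599, minus strand), a zinc finger factor that can arrest the cell cycle and binds other imprinted genes, stood at 12.0, 10.0 and 10.9 CPM in siBRG1 and at 19.7, 20.0 and 20.4 CPM in control. Control libraries hardly differed among themselves, and all were above siBRG1. It fell 1.82-fold (log2 fold change −0.86, SE 0.0938, adjusted p = 3.04e-09). HYMAI, a noncoding RNA that overlaps PLAGL1 on the same strand, had 0 counts in all siBRG1 libraries and 105 over the control libraries, which makes it at least 10.7-fold lower, with 3 counts over all siBRG1 libraries taken as the floor. Reads in exons that both genes share cannot be assigned to either. SF3B5, a splicing factor gene 31.0 kb away, rose (log2 fold change 0.84, SE 0.0510), LTV1 fell (log2 fold change −0.55, SE 0.0992), and STX11 and UTRN did not pass. UTRN was called as higher after a GC and length correction (log2 fold change 0.30, adjusted p = 6.84e-08).

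IGF2 (ENSG00000167244.19, chromosome 11, 2129112 to 2149603, minus strand), the fetal insulin-like growth factor, had 2 counts in the siBRG1 libraries together and 3 in the control libraries. All libraries were at or under 3 counts, so no fold is given. The symbol also names ENSG00000284779.1, which had 0 counts. The authors' deposited table lists a log2 fold change of 1.11 with an SE of 1.78. H19 (ENSG00000130600.18, chromosome 11, 1995176 to 2001470, minus strand), the maternally expressed noncoding RNA of the same cluster, stood at 0.874, 0.941 and 0.235 CPM in siBRG1 and at 0.329, 0.459 and 0.497 CPM in control. The groups overlap because siBRG1 replicate 3, with 3 counts, is the lowest of all. H19 did not pass (log2 fold change 0.69, SE 0.465, adjusted p = 0.185). Without siBRG1 replicate 3 it passed (log2 fold change 1.09, adjusted p = 0.0410), and without siBRG1 replicate 2 its log2 fold change was 0.41. MRPL23, CTSD and CD81, the tested genes within 250 kb of IGF2 or H19, rose by 0.64, 0.60 and 0.12 on the log2 scale. CD81 did not pass in several alternatives.

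CDKN1C (ENSG00000129757.13, chromosome 11, 2883213 to 2885773, minus strand) encodes a cyclin-dependent kinase inhibitor that restrains proliferation and growth. It stood at 2.11, 1.96 and 1.33 CPM in siBRG1 and at 0.185, 0.510 and 0.199 CPM in control, on 71 and 37 counts. All siBRG1 libraries were above all control libraries, and control replicate 2 was the highest control. It was 6.12-fold higher (log2 fold change 2.61, SE 0.404), from 2.32 without control replicate 1 to 3.19 without control replicate 2. Of its relatives, CDKN1A rose by 1.48 on the log2 scale (SE 0.0589) from a higher level (85.3 ± 2.07 against 30.5 ± 2.45 CPM), and CDKN1B by 0.48 (SE 0.0421, 141 ± 1.25 against 101 ± 2.50 CPM).

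KCNQ1OT1, the paternally expressed nuclear RNA whose transcription silences CDKN1C and other genes of its cluster on the paternal chromosome, went the other way. It stood at 12.0, 10.1 and 9.80 CPM in siBRG1 and at 50.0, 43.1 and 50.4 CPM in control. It fell by 2.16 on the log2 scale (SE 0.0891, adjusted p = 1.59e-18), or by 1.47 after a GC and length correction. Genes of its cluster did not move as a unit. SLC22A18, a transporter gene expressed from the maternal allele, stood at 7.43, 7.84 and 8.39 CPM against 2.59, 2.22 and 2.09 CPM and rose (log2 fold change 1.77, SE 0.161, adjusted p = 8.60e-11). PHLDA2, a maternally expressed gene that limits placental growth, stood at 1.60, 1.88 and 2.35 CPM against 3.27, 3.08 and 4.08 CPM and fell (log2 fold change −0.84, SE 0.219, adjusted p = 0.00122). NAP1L4, a histone chaperone gene, was at 147 ± 6.75 in siBRG1 and 141 ± 2.89 CPM in control; it passed only with unstranded counts (adjusted p = 0.0166). CARS, a tRNA synthetase gene, fell slightly (log2 fold change −0.28, SE 0.0610).

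MEG3 (ENSG00000214548.15, chromosome 14, 100779410 to 100861031, plus strand), a maternally expressed nuclear noncoding RNA, stood at 78.3, 79.6 and 63.7 CPM in siBRG1 and at 139, 136 and 142 CPM in control. The groups did not overlap, and siBRG1 replicate 3 was the lowest. MEG3 fell 1.88-fold (log2 fold change −0.91, SE 0.0564, adjusted p = 1.61e-14), or by 0.75 on the log2 scale after a GC and length correction. The 11 tested genes within 250 kb of its start, all on the same strand and 9 of them small RNA genes, were lower, but 7 of the small RNA genes reached the count filter in no siBRG1 library. Those 7 were tested because of control and could only come out lower. The small nucleolar RNA genes SNORD113-3 and SNORD114-10 reached the filter in 2 and 1 siBRG1 libraries and in 3 control libraries. Their testing depended on control too. MEG8, a noncoding RNA further along the cluster, stood at 4.23, 5.57 and 6.12 CPM against 30.8, 29.8 and 31.4 CPM (log2 fold change −2.54, SE 0.106). AL117190.1, whose gene overlaps both, was lower by 3.77 on the log2 scale (SE 0.307), or by 4.52 without siBRG1 replicate 3. It reached the count filter in 1 siBRG1 library and 3 control libraries. It was thus tested because of control, and its values are a description. MEG9, which lies beyond that window, fell by 1.69 (SE 0.223). DLK1, the paternally expressed protein-coding gene of the cluster, had no count in any library.

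The small RNA genes of the cluster went with the low share of small RNA genes in siBRG1 given above, and the part of that share was not tested. SNORD114-20, a small nucleolar RNA gene, had 3 counts in all siBRG1 libraries and 1909 in all control libraries, and the ratio scaled to library size was 0.00513, with a 95% interval for counting error from 0.00106 to 0.0150. SNORD114-13 had 0 against 185, at least 18.9-fold lower. SNORD113-3 and SNORD114-10 turned to log2 fold changes of 1.84 (adjusted p = 0.000732) and 1.10 (adjusted p = 0.176) after a GC and length correction, and SNORD114-1, SNORD114-14 and MIR433 lost their calls there (adjusted p = 0.720, 0.0750 and 0.222). SNORD114-21 had 1 count against 413. These intervals and floors cover counting error only.

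Of the tested small RNA genes near MEST and MEG3, 3 are hairpin genes of microRNAs. Their mature sequences from RefSeq (GRCh38.p14) are shown with the seed, bases 2 to 8, in capitals, because each of them had at most 1 count over the siBRG1 libraries and the seeds name the families they belong to. The 6 arms hold 6 different seeds.
hsa-miR-335-5p: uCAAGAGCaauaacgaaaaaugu
hsa-miR-335-3p: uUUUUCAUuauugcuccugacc
hsa-miR-127-5p: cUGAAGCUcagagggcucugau
hsa-miR-127-3p: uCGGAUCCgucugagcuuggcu
hsa-miR-433-5p: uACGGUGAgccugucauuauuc
hsa-miR-433-3p: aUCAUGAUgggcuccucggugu

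MIR335, in an intron of MEST, had 0 siBRG1 and 137 control counts, at least 14-fold lower. MIR127 had 0 against 103, at least 10.5-fold lower. MIR433 had 1 against 78, a scaled ratio of 0.0418 with a 95% interval from 0.00105 to 0.240. Libraries made from sheared mRNA do not measure mature microRNAs, and a read on a hairpin gene can come from the intron of its host.

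**Figure D3:**
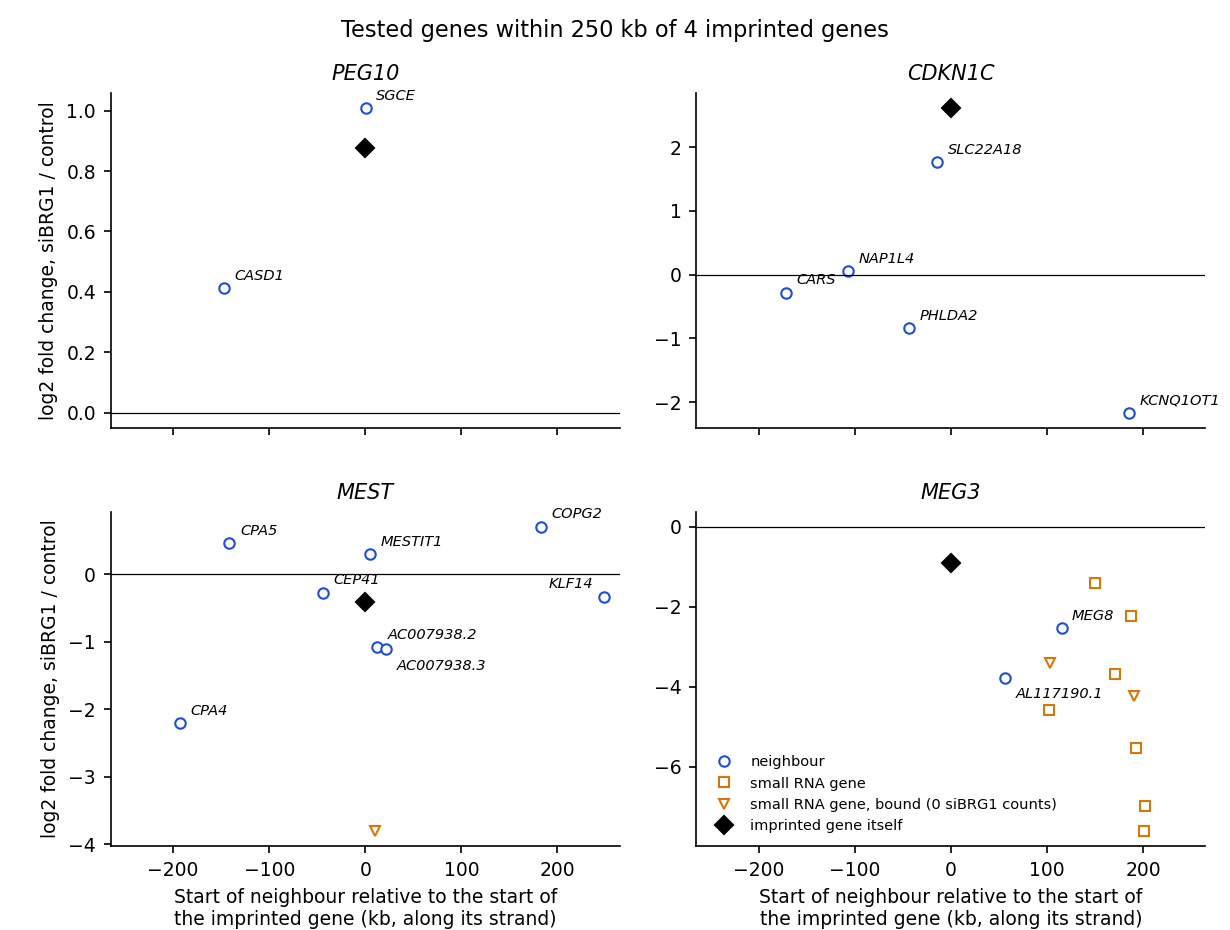
log2 fold change of every tested gene within 250 kb of PEG10, CDKN1C, MEST and MEG3, against the distance of its start along the strand of the imprinted gene (kb); triangles are bounds for genes with 0 siBRG1 counts, and genes with 1 to 3 siBRG1 counts are drawn at their count ratio. SGCE lies beside PEG10 at 1.01, CDKN1C and SLC22A18 lie above 0 with KCNQ1OT1 at −2.16, and every point of the MEG3 panel lies below 0.

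IGF2R (ENSG00000197081.12, chromosome 6, 159969099 to 160113507, plus strand) encodes the receptor that takes up mannose 6-phosphate tagged enzymes and clears IGF2. It stood at 296, 289 and 289 CPM in siBRG1 and at 221, 233 and 244 CPM in control. The groups were apart, by less than in the other genes that rose. It rose 1.25-fold (log2 fold change 0.33, SE 0.0397, adjusted p = 2.71e-08), with a range of 0.27 to 0.54 over the alternatives. Among 7 tested genes within 250 kb, 3 rose and 2 fell, beside 36.1% and 36.5% of all genes tested. The extremes were ACAT2, a thiolase gene of sterol synthesis (log2 fold change 1.70, SE 0.0497), and TCP1, a chaperonin subunit gene (log2 fold change −0.76, SE 0.0392). SOD2 and MRPL18 rose by 0.81 and 0.20, WTAP fell by 0.19, and AL353625.1 did not pass. AIRN, the antisense RNA that silences this cluster in the mouse, had no count in any library.

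GRB10 (ENSG00000106070.18, chromosome 7, 50590063 to 50793462, minus strand), an adaptor that dampens insulin and IGF receptor signalling, stood at 31.8, 27.8 and 27.2 CPM in siBRG1 and at 42.2, 41.6 and 47.1 CPM in control. No siBRG1 library reached a control library. It fell 1.51-fold (log2 fold change −0.59, SE 0.0711, adjusted p = 2.14e-08). None of the 5 other genes annotated within 250 kb of its start had enough counts to be tested.

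Levels of different genes were compared per length, as CPM per kb of merged exons. In control the order was MEST (197 ± 7.72), PEG10 (27.5 ± 0.830), IGF2R (13 ± 0.640), MEG3 (6.0 ± 0.129), GRB10 (4.46 ± 0.304), PLAGL1 (2.29 ± 0.0394), DIRAS3 (1.59 ± 0.108), H19 (0.148 ± 0.0304), CDKN1C (0.120 ± 0.0741) and IGF2 (0.00336 ± 0.00358). Neighbours in this order did not overlap in range except H19 and CDKN1C, and IGF2 was below the floor. In siBRG1 DIRAS3 moved from the seventh to the fourth place, at 14.3 ± 1.79 per kb, just under IGF2R at 16.3 ± 0.226, and their ranges did not overlap. MEG3 (3.18 ± 0.380) and GRB10 (2.95 ± 0.258) overlapped there, and CDKN1C (0.727 ± 0.167) lay above H19 (0.236 ± 0.134). Merged exons count every annotated isoform, which lowers the per-length level of genes with many isoforms such as MEG3.

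Beyond these genes, 64 other imprinted genes were listed by the allele they are known to be expressed from. Counts were high enough for 37, and 15 had no count in any library, among them DLK1, NDN and MKRN3. Of the 37, 10 rose and 14 fell (64.9% called, against 72.6% of all genes), with a median log2 fold change of −0.12 against −0.01 over all genes tested. Of 16 paternally expressed genes 3 rose and 6 fell, of 14 maternally expressed genes 3 rose and 6 fell, and of 7 genes imprinted by isoform or tissue 4 rose and 2 fell. Median log2 fold changes were −0.14, −0.36 and 0.54. UBE3A and TFPI2, whose imprinting is known from neurons and placenta, are counted here as maternally expressed.

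The largest rises were those of SLC22A18, OSBPL5, TFPI2, TRAPPC9, SGCE and NNAT. TFPI2, an inhibitor of matrix proteases expressed from the maternal allele in placenta, stood at 70.8, 55.9 and 64.1 CPM in siBRG1 against 24.3, 25.2 and 24.7 CPM in control, and every siBRG1 library was far above any control (log2 fold change 1.37, SE 0.0685). OSBPL5, an oxysterol binding protein gene of the CDKN1C cluster, rose by 1.56 on the log2 scale (SE 0.105), and TRAPPC9, a vesicle tethering gene, by 1.05 (SE 0.0851). NNAT, a small membrane protein gene, rose by 0.89 (SE 0.150), which did not hold with unstranded counts (log2 fold change 0.21, adjusted p = 0.180). NNAT lies within an intron of BLCAP on the other strand.

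Besides MEG8, CPA4, KCNQ1OT1, MEG9 and PHLDA2, the largest falls took in MCTS2P (log2 fold change −1.04, SE 0.174), a retrocopy of MCTS1 that can share its reads. After a GC and length correction it was not called (log2 fold change −0.36, adjusted p = 0.0694). GNAS and UBE3A, singled out after their values were seen, are imprinted in specific tissues. GNAS, the stimulatory G protein alpha subunit gene, rose by 0.64 (SE 0.0362, 976 ± 17.7 against 625 ± 11.2 CPM). UBE3A, a ubiquitin ligase gene silenced on the paternal copy in neurons, was at 167 ± 5.85 against 257 ± 6.61 CPM, a fall of 0.63 on the log2 scale (log2 fold change −0.63, SE 0.0399).

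Of 7 long noncoding RNAs tested in the wider list 6 fell and none rose, namely KCNQ1OT1, HYMAI, MEG8, MEG9, SNHG14 and GNAS-AS1, with a median log2 fold change of −1.69. HYMAI was tested because of control alone, and MESTIT1 did not pass. Among all 1808 long noncoding genes tested 38.1% fell and 16.7% rose, with a median of −0.36. Of 30 imprinted protein-coding genes 10 rose and 8 fell, with a median of −0.03 against 0.05 over all protein-coding genes tested. SNHG14, which hosts the small RNAs of the SNRPN cluster, had a log2 fold change of −0.27 (SE 0.0571), which turned to 0.26 (adjusted p = 0.000662) after a GC and length correction; this gene and GNAS-AS1 were picked with their values known. The call of GNAS-AS1 (log2 fold change −0.52, SE 0.181) did not hold without siBRG1 replicate 3 (adjusted p = 0.0836). Reads outside annotated features, which take in introns, were more frequent in control, as given above, and their part in these falls was not tested.

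**Figure D4:**
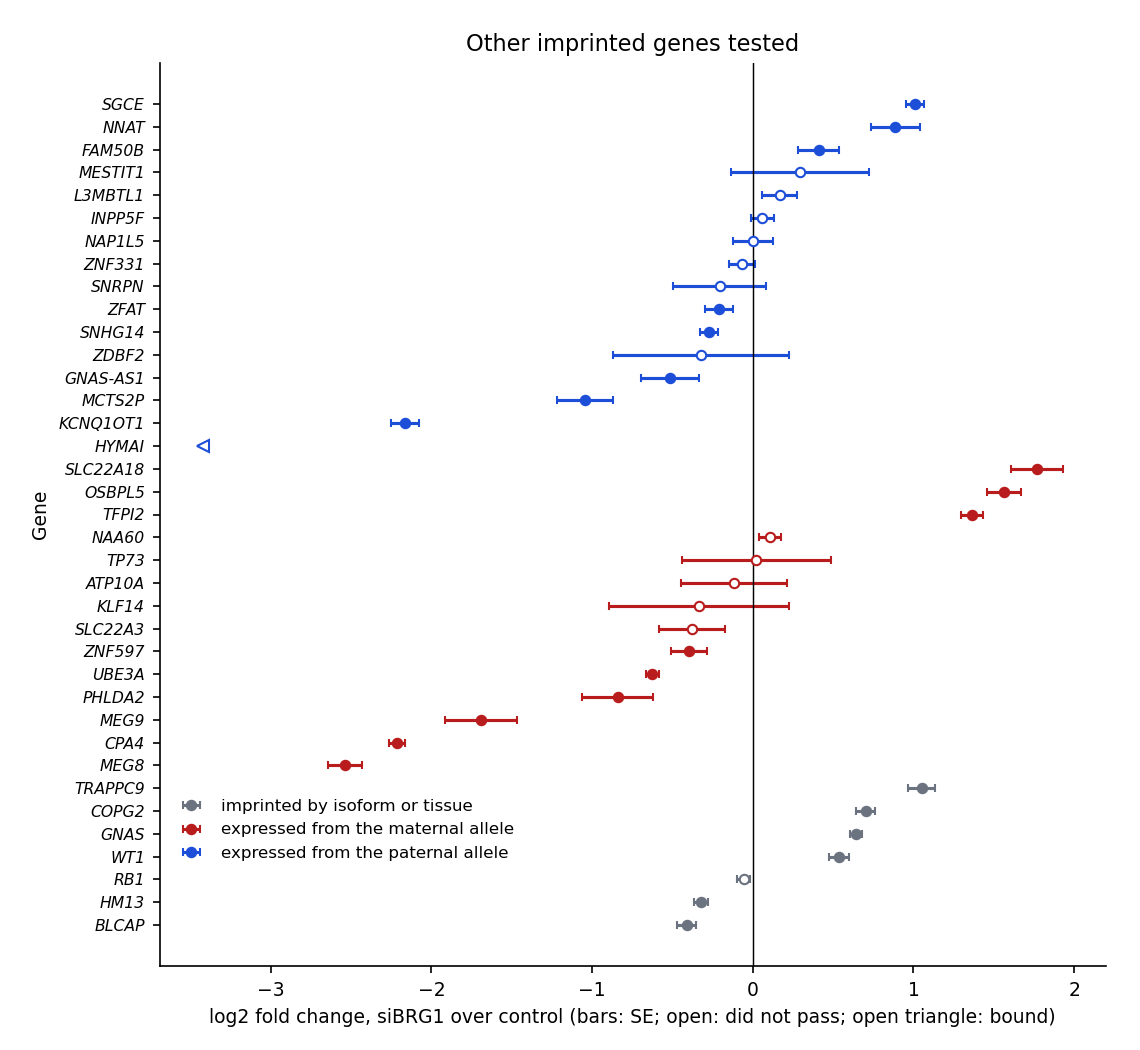
log2 fold change of siBRG1 over control for the 37 other imprinted genes tested, bars showing the SE, filled points having passed the test and the open triangle being the bound for HYMAI. Values range from −2.54 (MEG8), with the HYMAI bound further left, to 1.77 (SLC22A18), and each colour has points on both sides of 0.

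The insulin and IGF pathway, in which IGF2, IGF2R and GRB10 act, was listed with 20 further genes. Of 18 tested, 9 rose and 6 fell (83.3% called, against 72.6% of all genes tested), with a median log2 fold change of 0.10 against −0.01 over all genes. IGF1 had no count in any library, and the receptor genes IGF1R and INSR, named after their values were seen, rose by 0.55 (SE 0.0501) and 0.83 (SE 0.0670) on the log2 scale. The listed secreted binding proteins moved in both directions, with more rises than falls, and those with the largest changes are given. IGFBP2 stood at 13.3, 14.8 and 13.9 CPM in siBRG1 against 4.04, 3.87 and 3.16 CPM in control (log2 fold change 1.92, SE 0.129), and IGFBP7 rose by 1.74 (SE 0.0559). IGFBP3, the main carrier of IGFs in blood, stood at 13.8, 14 and 12.5 CPM against 45.6, 47.2 and 48.7 CPM (log2 fold change −1.81, SE 0.0747), and IGFBP5 had a log2 fold change of −1.57 (SE 0.0680). For each of these 4 the groups were well apart.

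Factors known to keep imprints, or to lay down or remove DNA methylation, were listed with 22 genes. Of 14 tested, 2 rose and 9 fell (78.6% called, against 72.6% of all genes tested), with a median log2 fold change of −0.17 against −0.01 over all genes. The falls included members of the TET family, whose enzymes oxidise methylated cytosine, so they are not all falls of factors that keep imprints. After a GC and length correction 2 rose and 7 fell. UHRF1, which brings the maintenance methyltransferase to newly copied DNA, stood at 122, 124 and 117 CPM in siBRG1 against 242, 240 and 239 CPM in control. Libraries of a group lay close together, and UHRF1 fell by 0.99 (SE 0.0404, adjusted p = 1.32e-18). SMCHD1, a chromatin protein of the inactive X and of imprinted clusters, fell by 0.59 (SE 0.0413). TRIM28, DNMT1 and CTCF, named after their values were seen, had smaller log2 fold changes of −0.17, −0.16 and −0.32 (SE 0.0369, 0.0379 and 0.0490). DNMT3B and DNMT3A, the de novo methyltransferases, rose by 0.27 and 0.26 (SE 0.0851 and 0.0722), but DNMT3B did not pass after a GC and length correction (adjusted p = 0.213) or when siBRG1 replicate 3 was left out (adjusted p = 0.0617). ZFP57 had no count in any library. No methylation was measured in these samples.

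Counting each gene once, 45 genes near the imprinted genes were tested, of which 13 rose and 23 fell. Of the latter, 9 reached the count filter in no siBRG1 library: the 7 of the MEG3 cluster, MIR335 and HYMAI. AL117190.1 and SNORD114-10 reached it in 1 siBRG1 library and SNORD113-3 in 2, so their testing depended on control as well. After a GC and length correction, 14 rose and 16 fell. Without the 10 small RNA genes, all of which were lower, 13 rose and 13 fell among 35, beside 36.1% and 36.5% of all genes tested.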

How the data were processed

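The deposited files hold, for each library, raw counts per gene, unstranded and for each strand. Tools named without a version in the submitters' processing notes are STAR, Trim Galore, cutadapt, DESeq2 and FastQC, with build GRCh38.p12; which annotation release was used is not given there. The authors also deposited a table of their own comparison, whose headers give a mean normalised signal, log2 fold changes, a Wald statistic and IHW weight (scores), and p-values. Only its log2 fold changes and SEs are quoted.

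The strand with the larger total was used. Of 58336 identifiers 58216 matched GENCODE release 29 (56888 with their version). Entries naming no gene stayed out of library sizes: unmapped, multimapping, no-feature and ambiguous reads held 1.84, 20.3, 3.97 and 3.11% of reads in siBRG1 and 1.64, 9.81, 13.3 and 4.16% in control. No library repeats another: within groups, chi-square over its degrees of freedom was 2.71 to 4.80. edgeR 4.0.16 (R 4.3.3) with TMM, filterByExpr and robust quasi-likelihood fits compared the groups, two-sided, adjusted by Benjamini-Hochberg over all genes, with 0.05 as threshold. SE is the absolute log2 fold change over the square root of F. The GC and length correction took each library's trends of log counts on transcript GC and merged exon length (natural splines, 5 degrees of freedom each) as offsets; the alternative tool was DESeq2 1.42.0. No set test was run, and lists are described by counts and medians.

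Named were the 10 genes and their relatives, every tested gene starting within 250 kb, and, of each list, the largest called rises and falls averaging 50 or more counts (up to 6 each for other imprinted genes, 2 for other lists). Of the tested neighbours, 1 is counted but not reported here. The genes, lists and motifs were chosen with earlier results of these data known. Same-numbered libraries of the 2 groups did not deviate together.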

Additional observations from a re-analysis of the deposited data

How the results depend on the processing

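Each result was recomputed with DESeq2, DESeq2 size factors, other count filters, unstranded counts, protein-coding and long noncoding genes only, GC and length trends removed, a replicate block, and without each library. Over these, 96 of 97 values of the imprinted genes other than DIRAS3 and CDKN1C kept their direction and side of the threshold, the exception being H19. Of 994 values of other named genes 972 did so, 15 lost their call, 3 gained one and 4 turned, all 4 with GC and length trends removed: CD81 (log2 fold change −0.057), SNHG14 (0.26), SNORD113-3 (1.84) and SNORD114-10 (1.10), and the cause was not tested. CD81 also lost its call with no count filter (adjusted p = 0.145) and without control replicate 1 (adjusted p = 0.0933). The fit with no count filter tested 30426 genes, and their median log2 fold change was −0.30. What moved this median was not tested. Over all genes 10291 to 11692 were called without 1 library. The samples share only a replicate number: correlations of same-numbered libraries' deviations were −0.01, 0.02 and 0.01, and with the replicate block 11194 genes were called against 11498, with no call of a named gene changed. The filter at 50 counts gives no value for CDKN1C and H19. Low counts limit IGF2, H19 and CDKN1C.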
